A study of Arabidopsis thaliana with 6 samples.

Results

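DCL1 and 9 further genes that make, modify, export or bind small RNAs were followed in dark-grown Arabidopsis thaliana seedlings of 2 genotypes. The members were taken by their locus identifiers in the deposited expression table and are DCL1 (AT1G01040), DCL2 (AT3G03300), DCL3 (AT3G43920), DCL4 (AT5G20320), AGO1 (AT1G48410), AGO4 (AT2G27040), HEN1 (AT4G20910), SE (AT2G27100), HYL1 (AT1G09700) and HST (AT3G05040). All 10 were found among the 24487 genes of the table, and all 10 were among the 20222 genes abundant enough to be tested. They were chosen by locus with the normalized expression values of these same libraries, and the difference between the genotypes, already known, so those values are given as a description with no test.

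RNA was sequenced from whole seedlings, in 3 libraries labelled atino80-6 and 3 libraries labelled wild type. Both groups were 4 days old and had been kept at 22 °C in the dark without interruption, after a cold period in the dark, and no light or other treatment separated them. The atino80-6 line is named after INO80 (AT3G57300), the ATPase of a chromatin remodelling complex, and the labels give neither the kind of allele nor whether the replicates came from separate cultures. INO80 transcripts averaged 31503 ± 2887 normalized counts in libraries labelled atino80-6 and 5839 ± 302 in wild type (SD, n = 3 each), which is 5.40 times the wild-type level and not a lower one. For that reason the group is called by its label throughout, and each direction below is that of the libraries labelled atino80-6 relative to those labelled wild type.

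In plants, Dicer-like (DCL) enzymes cut double-stranded RNA into short duplexes. DCL1, helped by the double-stranded RNA-binding protein HYL1 and the zinc-finger protein SE, cuts microRNAs out of hairpin transcripts, HEN1 methylates the ends of the duplex, HST acts in microRNA export, and AGO1 holds the mature microRNA and slices its targets. DCL2, DCL3 and DCL4 instead make small interfering RNAs of different lengths, and those of DCL3 guide AGO4 to DNA methylation at transposons and repeats. The pathway also acts on itself, since miR162 targets the DCL1 transcript and miR168 targets the AGO1 transcript.

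These 2 microRNAs and the sites they meet in the member transcripts are shown because they are the best known feedback on the genes described here. The sequences are from RefSeq on the build TAIR10.1, 5′ to 3′, with the microRNA seed (bases 2 to 8) and the target bases opposite it in capitals.
ath-miR162a-3p: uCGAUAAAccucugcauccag
DCL1 site: ctggatgcagaggTATTATCGa
ath-miR168a-5p: uCGCUUGGugcaggucgggaa
AGO1 site: ttcccgagctgcaTCAAGCTa
The DCL1 site, on chromosome 1, pairs with miR162a without a mismatch, apart from 1 extra unpaired target base, which lies among the capitals. It is coding sequence that spans the junction of exons 12 and 13, with 12 of its 22 bases in exon 12, and only 1 of the 2 annotated DCL1 transcripts holds it. The AGO1 site, also on chromosome 1, pairs with miR168a with 2 mismatches and 1 G:U pair and lies in coding sequence of exon 2 in all 3 annotated transcripts.

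The libraries held between 18446028 and 24156610 reads, and 3 reads in a library corresponded to between 2.62 and 3.50 normalized counts. Normalized counts are reads divided by the authors' size factor for the library. The first principal component carried 74.9% of the variance of the tested genes. Within the groups, atino80-6 3 and wild type 1 stood apart. The chi-square per degree of freedom was 21.1 and 23.1 for atino80-6 3 against its replicates, which gave 8.11 between them, and 20.4 and 20.8 for wild type 1 against its replicates, which gave 5.82 between them. With each gene fitted by limma and the adjusted p held at 0.05, 3572 genes rose and 3351 fell. Because whole seedlings were sequenced, fewer cells of a type and less RNA per cell cannot be told apart. Among 5 markers of dividing cells, none at 0 in any library, 2 fell (CDKB2;1 and CDKB2;2), or 40.0%, beside 16.6% of all tested genes. KNOLLE, CYCA1;1 and CYCB1;1 did not pass, with log2 differences of -0.44 for KNOLLE and 0.10 for CYCA1;1. The summed level of the list was 631 to 808 normalized counts in libraries labelled atino80-6 and 795 to 1225 in wild type. Both calls were lost without atino80-6 1, atino80-6 2, wild type 2 or wild type 3, with adjusted p-values of up to 0.11. The summed level of 3 seed storage genes ran from 6077 to 59824 in the libraries labelled atino80-6 and from 5500 to 20582 in wild type. Of the seed storage genes, SESA4 was at 0 in wild type 2. Neither the 2 markers of etiolated seedlings nor the 3 of root hairs passed the test. The part of these cell markers in the results was not tested.

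Of the enzymes that cut double-stranded RNA, DCL1 differed most between the genotypes. It had 1343, 1296 and 1342 normalized counts in libraries labelled atino80-6, against 2368, 2671 and 2499 in wild type. All 3 libraries labelled atino80-6 lay far below all 3 of wild type and close to each other. The mean was 1327 ± 27.0 in the libraries labelled atino80-6 and 2513 ± 152 in wild type (SD, n = 3 each), so the libraries labelled atino80-6 held 52.8% of the wild-type level, a log2 difference of -0.92 ± 0.07 (SE). Without any 1 library the difference ran from -0.96 to -0.87, and without both atino80-6 3 and wild type 1 it was -0.97.

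**Figure D1:**
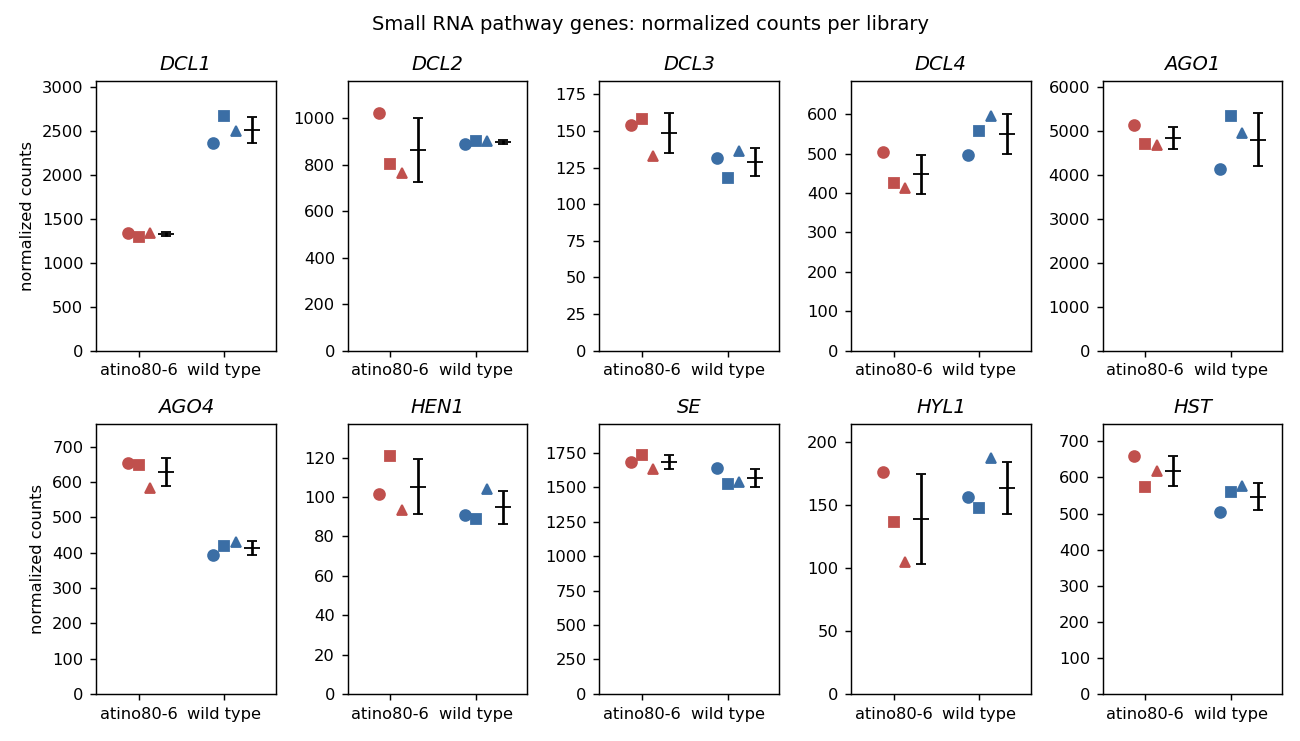
Normalized counts (vertical axes, each from 0) of the 10 genes in the 3 libraries labelled atino80-6 (red, left) and the 3 of wild type (blue, right). Circles, squares and triangles are libraries 1, 2 and 3 and the black bars are the mean ± SD; DCL1 and AGO4 are the genes whose groups do not overlap.

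DCL2, which makes secondary and antiviral small interfering RNAs, had 1020, 801 and 764 normalized counts in libraries labelled atino80-6, against 886, 903 and 901 in wild type. The first of the libraries labelled atino80-6 was above wild type and the other two were below it. The log2 difference was -0.07 ± 0.11 (SE), and it was 0.01 without atino80-6 3. DCL3, whose products feed DNA methylation, was scarce, with 154, 158 and 133 normalized counts in libraries labelled atino80-6 and 131, 118 and 136 in wild type. The groups overlapped at their edges, and the log2 difference was 0.21 ± 0.14 (SE).

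DCL4, which makes trans-acting small interfering RNAs (ta-siRNAs), had 505, 425 and 412 normalized counts in libraries labelled atino80-6, against 495, 558 and 596 in wild type. Only atino80-6 1 reached into the wild-type range. The log2 difference was -0.30 ± 0.11 (SE), and it was -0.39 without atino80-6 1, -0.37 without wild type 1 and -0.34 with the libraries scaled to equal totals.

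Because values of different genes can be compared only per length, the share of DCL1 among the Dicer-like transcripts was taken on the FPKM scale, on which the authors divided by gene length. DCL1 made up 44.1%, 48.0% and 50.4% of the summed FPKM of the 4 Dicer-like genes in the libraries labelled atino80-6, against 60.9%, 62.9% and 60.6% in wild type. The share averaged 47.5 ± 3.17% in the libraries labelled atino80-6 and 61.5 ± 1.24% in wild type (SD, n = 3 each) and did not overlap. This share reuses the DCL1 values described above, so it is not a separate result. The summed FPKM itself was 17.8, 15.7 and 15.5 in the libraries labelled atino80-6, against 22.7, 24.8 and 24.1 in wild type.

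SE and HYL1, the partners of DCL1 in microRNA processing, had smaller differences than DCL1, and their groups overlapped. SE had 1683, 1737 and 1634 normalized counts in libraries labelled atino80-6, against 1644, 1527 and 1539 in wild type. The groups overlapped by a small margin, and the log2 difference was 0.10 ± 0.07 (SE), or 0.16 without atino80-6 3 and wild type 1. HYL1 had 176, 136 and 105 normalized counts in libraries labelled atino80-6, against 157, 147 and 187 in wild type. It was the most scattered of the 10 genes within the genotypes, with a log2 difference of -0.26 ± 0.20 (SE). When a library was left out, the HYL1 difference ran from -0.44 to -0.07, the latter without atino80-6 3.

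Downstream of processing, HEN1, the methyltransferase of small RNA duplexes, had 102, 121 and 93.3 normalized counts in libraries labelled atino80-6, against 91.0, 88.8 and 104 in wild type. These ranges overlapped, with a log2 difference of 0.15 ± 0.17 (SE). HST, an exportin-5 relative, had 659, 575 and 619 normalized counts in libraries labelled atino80-6, against 505, 558 and 576 in wild type. The lowest library labelled atino80-6 was level with the highest of wild type, and the log2 difference was 0.18 ± 0.09 (SE).

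Of the effector proteins, AGO1 showed no consistent direction and AGO4 was higher. AGO1 had 5133, 4711 and 4678 normalized counts in libraries labelled atino80-6, against 4135, 5333 and 4942 in wild type. Wild type 1 was the lowest of the 6 libraries, and the log2 difference of 0.02 ± 0.10 (SE) ran from -0.09 to 0.10 when a library was left out and was -0.03 with equal library totals. AGO4, which binds the small interfering RNAs that guide DNA methylation, had 654, 648 and 584 normalized counts in libraries labelled atino80-6, against 392, 419 and 430 in wild type. All 3 libraries labelled atino80-6 lay above all 3 of wild type, with a mean of 629 ± 39.1 in the libraries labelled atino80-6 and 414 ± 19.7 in wild type (SD, n = 3 each). The ratio of the means was 1.52, the log2 difference was 0.60 ± 0.09 (SE), and it stayed between 0.56 and 0.65 whichever library was left out.

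**Figure D2:**
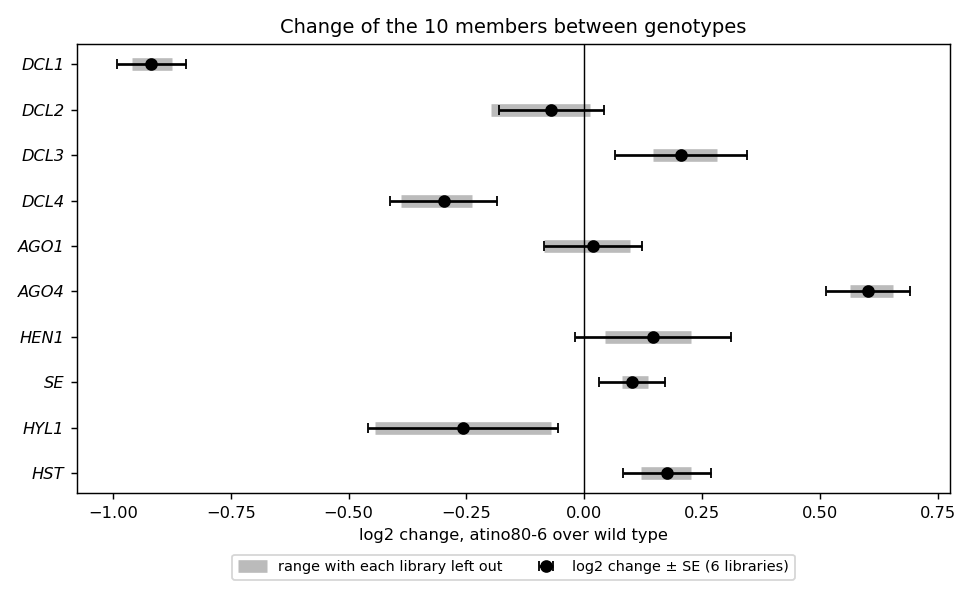
Log2 difference (horizontal axis, libraries labelled atino80-6 over wild type) of each of the 10 genes, as a point with its standard error over 6 libraries. Grey bars show the range when each library is left out in turn; DCL1 lies at -0.92, AGO4 at 0.60, and the other 8 genes lie between -0.30 and 0.21.

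In the fit over all genes, 2 of the 10 members (20.0%) passed the threshold, DCL1 lower and AGO4 higher, beside 34.2% of all tested genes, of which 17.7% were higher and 16.6% lower. The same 2 members were the ones whose groups did not overlap, beside 48.3% of all tested genes. The authors' deposited table also holds 2 members past an adjusted p of 0.05, beside 31.2% of its genes, with log2 changes of -0.92 for DCL1 and 0.60 for AGO4. Nothing is read from these shares, because the members were chosen with this comparison known. The median log2 difference of the 10 members was 0.06, and that of all tested genes was 0.00039. By size of its log2 difference, DCL1 stood at rank 1191 among the 3351 genes that fell.

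Per length, AGO1 was the most abundant of the 10 transcripts in both genotypes, with 32.8 ± 1.72 FPKM in the libraries labelled atino80-6 and 32.5 ± 4.13 FPKM in wild type (SD, n = 3 each). SE came next, with 19.3 ± 0.591 FPKM in the libraries labelled atino80-6 and 18.0 ± 0.738 FPKM in wild type, and did not overlap with AGO1. DCL1 held rank 3 in both genotypes, with 7.74 ± 0.157 FPKM in the libraries labelled atino80-6 and 14.7 ± 0.886 FPKM in wild type. In the libraries labelled atino80-6 the highest DCL1 value was 7.84 FPKM and the lowest SE value 18.7 FPKM, while in wild type the highest DCL1 value, at 15.6 FPKM, came near the lowest SE value, at 17.5 FPKM.

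DCL2 held rank 4 in both genotypes, with 5.55 ± 0.891 FPKM in the libraries labelled atino80-6 and 5.77 ± 0.0587 FPKM in wild type. AGO4 and HST had opposite places, AGO4 at rank 5 with 5.09 ± 0.316 FPKM and HST at rank 6 with 4.20 ± 0.286 FPKM in the libraries labelled atino80-6, and AGO4 at rank 6 with 3.35 ± 0.159 FPKM and HST at rank 5 with 3.72 ± 0.253 FPKM in wild type. AGO4 and HST did not overlap in the libraries labelled atino80-6 and did overlap in wild type. HYL1 and DCL4 followed, with 2.54 ± 0.655 FPKM and 2.10 ± 0.235 FPKM in the libraries labelled atino80-6, and 2.98 ± 0.379 FPKM and 2.58 ± 0.238 FPKM in wild type. HEN1 and DCL3 were last, at 0.971 ± 0.129 FPKM and 0.962 ± 0.0875 FPKM in the libraries labelled atino80-6, and at 0.874 ± 0.0761 FPKM and 0.832 ± 0.0611 FPKM in wild type. HYL1 could not be ordered against DCL4, nor HEN1 against DCL3, since their libraries overlapped in both genotypes. DCL2 overlapped with AGO4 in the libraries labelled atino80-6 only, and AGO4 overlapped with HYL1 in wild type only.

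**Figure D3:**
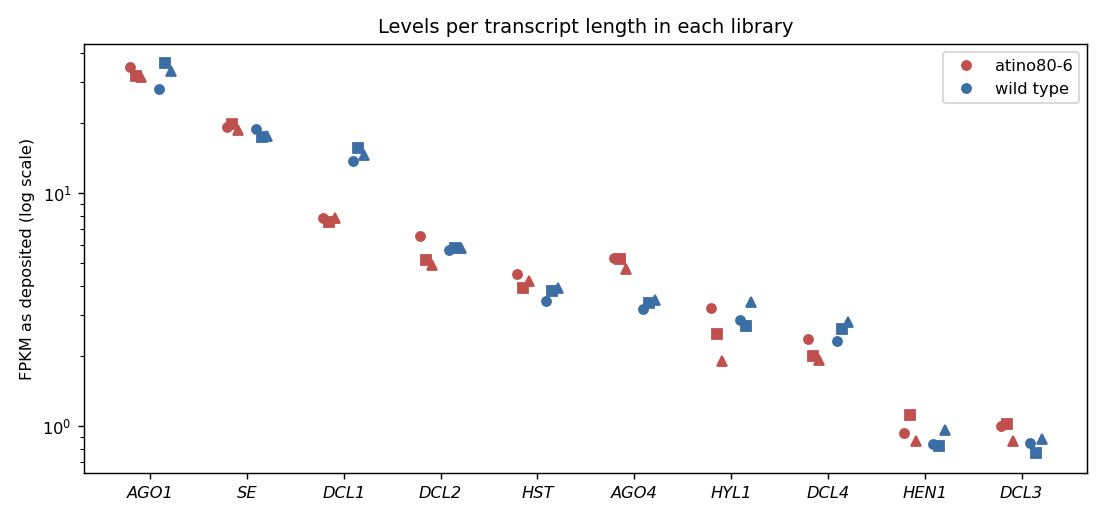
Level per length of the 10 genes in FPKM (logarithmic vertical axis) in each library labelled atino80-6 (red, left of each pair) and wild type (blue, right), ordered by level, with circles, squares and triangles for libraries 1, 2 and 3. AGO1 at about 32.8 and 32.5 FPKM is the most abundant, and HEN1 and DCL3 are the scarcest.

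The genes are spread over the 5 nuclear chromosomes, and the annotation TAIR10.1 places other genes on top of 4 of them. The protein of DCL1 is read from 5733 coding bases in 20 exons. MIR838 lies on the same strand inside intron 14 of DCL1, so its reads cannot be told apart from those of unspliced DCL1 transcript. MIR838 had 29.2, 21.9 and 26.2 normalized counts in libraries labelled atino80-6, against 36.7, 40.0 and 42.0 in wild type. These groups did not overlap, but the log2 difference of -0.61 ± 0.24 (SE) did not pass the test (adjusted p = 0.084). PPa1 (AT1G01050), a pyrophosphatase gene that meets the last exon of the longest DCL1 transcript from the opposite strand, averaged 1216 ± 65.6 normalized counts in libraries labelled atino80-6, against 962 ± 23.9 in wild type (SD, n = 3 each) and rose by 0.34 ± 0.07 on the log2 scale (adjusted p = 0.0084). Whether the counting used strand is not given in the sources used here, and how reads on these overlaps were assigned was not tested. A long noncoding RNA gene, AT1G03993, also meets DCL1 exons from the opposite strand and was not analysed here. AT3G03305 overlaps DCL2 on the same strand, with a log2 difference of -0.05 ± 0.19 (SE, adjusted p = 0.87). AT1G09690 overlaps HYL1 on the same strand and had 3187, 2702 and 1953 normalized counts in libraries labelled atino80-6, against 2343, 1726 and 1977 in wild type. Its log2 difference of 0.36 ± 0.18 (SE) did not pass (adjusted p = 0.15). AT3G43930, opposite to DCL3, had at most 17.6 normalized counts in any library.

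The transcripts of the microRNA genes that feed back on the pathway were examined next. All gene lists beside the members were also chosen with earlier results of these data known, so their adjusted p-values serve as a description. MIR162A, a source of miR162, had 360, 402 and 371 normalized counts in libraries labelled atino80-6, against 577, 525 and 480 in wild type. All libraries labelled atino80-6 were below all of wild type, and MIR162A fell by 0.48 ± 0.10 on the log2 scale (adjusted p = 0.0069), also in each fit with a library left out. MIR162A and DCL1, a target gene of miR162, were thus both lower. Counts were per gene, so DCL1 transcripts with and without the site were not told apart. MIR168A, a source of miR168, had 46.7, 38.8 and 58.0 normalized counts in libraries labelled atino80-6, against 33.2, 32.2 and 26.2 in wild type. It had a log2 difference of 0.62 ± 0.25 (SE) and did not pass the test (adjusted p = 0.085). MIR403, whose product targets AGO2, had a log2 difference of -0.52 ± 0.42 (SE, adjusted p = 0.37), and MIR162B and MIR168B had too few reads to be tested. In all, 0 of the 4 tested microRNA genes rose and 1 fell (25.0%, beside 34.2% of all tested genes), with a median of -0.50. MIR838 is counted here, although its reads cannot be told apart from those of unspliced DCL1 transcript. These are transcripts of the microRNA genes, and mature microRNAs were not measured.

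**Figure D4:**
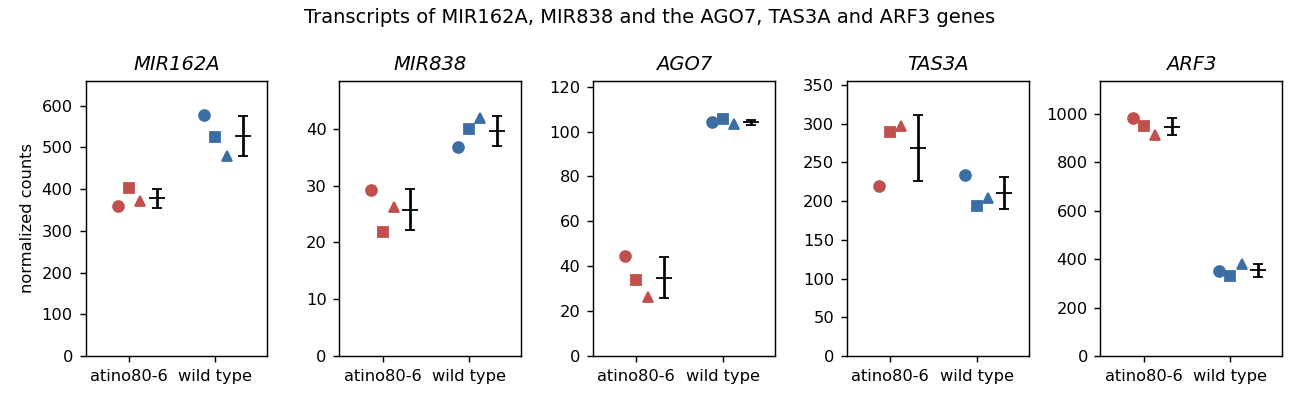
Normalized counts (vertical axes, each from 0) of MIR162A, MIR838, AGO7, TAS3A and ARF3 in the libraries labelled atino80-6 (red, left) and wild type (blue, right), with circles, squares and triangles for libraries 1, 2 and 3 and black bars for the mean ± SD. The groups overlap for TAS3A only, and ARF3 is the gene of these that is higher in all 3 libraries labelled atino80-6.

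Of the other argonautes, 7 of 8 were abundant enough to be tested. Of these, 1 rose and 1 fell (28.6% in all, beside 34.2% of all tested genes), with a median log2 difference of 0.23. AGO7, which binds miR390 and starts ta-siRNA production from TAS3 transcripts, had 44.4, 33.9 and 26.2 normalized counts in libraries labelled atino80-6, against 104, 105 and 103 in wild type. It fell by 1.59 ± 0.23 on the log2 scale (adjusted p = 0.00092), and by 0.70 on the log2 scale of FPKM plus 1. AGO9, known for silencing in the ovule, rose by 1.67 ± 0.45 (adjusted p = 0.020), averaging 60.6 ± 26.1 normalized counts in libraries labelled atino80-6 and 18.3 ± 9.30 in wild type (SD, n = 3 each). That call was lost without atino80-6 1, atino80-6 2, wild type 2 or wild type 3, with an adjusted p of up to 0.086. It was also lost with FPKM plus 1, where the difference was 0.36. Within a gene, FPKM and normalized counts differ only by a constant factor, and the added 1 shrinks the difference of a scarce transcript. AGO10, which withholds miR166 from AGO1, averaged 641 ± 68.5 normalized counts in libraries labelled atino80-6, against 777 ± 24.8 in wild type, with an adjusted p of 0.0505 that fell just short of the threshold. AGO2 did not pass (log2 difference 0.23 ± 0.16, adjusted p = 0.31). The count of 2 argonautes called became 1 without atino80-6 2 and without wild type 2.

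RNA-dependent RNA polymerases copy single-stranded into double-stranded RNA for the Dicer-like enzymes, and SGS3 works beside RDR6. Of the 6 tested genes in this list, 2 rose and 3 fell (83.3% in all, beside 34.2% of all tested genes). The median log2 difference was -0.08. RDR1, known for antiviral defence, had 239, 269 and 336 normalized counts in libraries labelled atino80-6, against 400, 593 and 527 in wild type, and fell by 0.84 ± 0.17 on the log2 scale (adjusted p = 0.0059). SGS3 and RDR6, which act before DCL4 in the ta-siRNA pathway, fell by 0.64 ± 0.19 (adjusted p = 0.029) and 0.28 ± 0.09 (adjusted p = 0.046). RDR2, the partner of DCL3, did not pass (log2 difference 0.11 ± 0.15, adjusted p = 0.59).

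RDR3, at 221, 257 and 269 normalized counts in libraries labelled atino80-6 against 130, 125 and 111 in wild type, rose by 1.02 ± 0.14 (adjusted p = 0.00063). RDR5 rose by 0.63 ± 0.09 (adjusted p = 0.00084). RDR3 (AT2G19910) and RDR5 (AT2G19930) are related copies with RDR4 (AT2G19920) between them by locus, so reads shared between these genes are uncertain. RDR4 was too scarce to be tested. RDR6 was named after its values were seen. The calls of SGS3 and RDR6 were lost, and the count for the list became 3, when any library except atino80-6 1 was left out, with adjusted p-values of up to 0.11 and 0.16.

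TAS genes give the long precursors of ta-siRNAs. In limma 0 of the 5 tested TAS genes passed, beside 34.2% of all tested genes, and their median log2 difference was 0.01. At an unadjusted p under 0.05 there was 1, limma voom on reads called 0, and the authors' deposited table holds 0. TAS3A, the precursor cut through AGO7, had 220, 289 and 297 normalized counts in libraries labelled atino80-6, against 234, 194 and 204 in wild type. Its log2 difference of 0.34 ± 0.15 (SE) had an adjusted p of 0.11, and TAS3A came to pass when atino80-6 1 was left out, which made the count 1. TAS1A, TAS1B, TAS1C and TAS2 had log2 differences of 0.22, 0.01, -0.07 and -0.00, and TAS3C had too few reads to be tested. TAS3B and TAS4 were not analysed here.

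Among the 3 auxin response factors targeted by TAS3 ta-siRNAs, ARF3 had 981, 948 and 913 normalized counts in libraries labelled atino80-6, against 350, 330 and 380 in wild type. It rose by 1.42 ± 0.09 on the log2 scale (adjusted p = 1.2e-05), with groups far apart. ARF2, named after its values were seen, averaged 6440 ± 509 normalized counts in libraries labelled atino80-6, against 8902 ± 368 in wild type, and fell by 0.47 ± 0.09 (adjusted p = 0.0039). ARF4, the remaining gene, had a log2 difference of 0.04 and did not pass.

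The other double-stranded RNA-binding proteins of the HYL1 family numbered 4, of which 0 rose and 1 fell (25.0% in all, beside 34.2% of all tested genes). Their median was -0.01. DRB3 fell by 0.34 ± 0.09 on the log2 scale (adjusted p = 0.020), a call that was lost without atino80-6 1 or atino80-6 2, where the count was 0 and the adjusted p up to 0.068. Among 20 further cofactors of microRNA processing, 1 rose, 2 fell and 17 did not pass, beside 34.2% of all tested genes that passed. The median log2 difference of these cofactors was 0.03. MOS2, an RNA-binding protein, and STA1, a splicing factor, fell by 0.36 ± 0.08 (adjusted p = 0.0086) and 0.33 ± 0.07 (adjusted p = 0.0085). PRL1, a WD-repeat protein of the same complex as CDC5, rose by 0.28 ± 0.09 (adjusted p = 0.045) and lost its call without atino80-6 1, atino80-6 2, wild type 2 or wild type 3. CDC5 itself had a log2 difference of 0.07 and did not pass. Without atino80-6 3 the count for these cofactors was 5.

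No gene rose or fell among 5 genes for AGO1 loading and turnover or among 5 genes for the tailing and degradation of small RNAs. Their medians were -0.07 and 0.11, and 34.2% of all tested genes passed. At an unadjusted p under 0.05 limma gave 2 and 1, limma voom on reads called 0 in both lists, and the authors' deposited table holds 1 and 0. RACK1A, a scaffold protein that binds AGO1, had a log2 difference of 0.37 ± 0.15 (adjusted p = 0.087), and URT1, a uridylating enzyme, had -0.16 ± 0.10 (adjusted p = 0.24). Each list had 1 gene that passed without atino80-6 3, and the second had 2 without wild type 1.

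AGO4 works in the pathway of the RNA polymerases Pol IV and Pol V, in which small interfering RNAs guide the methylation of DNA. Of 19 further genes of this pathway 4 rose and 3 fell (36.8% in all, beside 34.2% of all tested genes) and 12 did not pass, with a median log2 difference of 0.18. SUVH2 and SUVH9, which bind methylated DNA and bring in Pol V, rose by 0.74 ± 0.11 (adjusted p = 0.0014) and 0.51 ± 0.07 (adjusted p = 0.00099). SUVH2 had 312, 275 and 285 normalized counts in libraries labelled atino80-6, against 175, 184 and 161 in wild type. IDN2, an RNA-binding partner of the pathway, had 207, 206 and 149 normalized counts in libraries labelled atino80-6, against 347, 266 and 327 in wild type, and fell by 0.75 ± 0.17 (adjusted p = 0.0086).

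RDM1, a protein that links AGO4 to the methyltransferase, rose by 0.57 ± 0.14 (adjusted p = 0.015), and DRM2, the methyltransferase, rose by 0.37 ± 0.10 (adjusted p = 0.021). CLSY3, a remodeller that guides Pol IV, fell by 0.73 ± 0.22 (adjusted p = 0.032), and SPT5L, an elongation factor that binds AGO4, fell by 0.23 ± 0.07 (adjusted p = 0.039). NRPD2 and NRPE5, subunits of these polymerases, had log2 differences of 0.19 and 0.07 and did not pass. SUVH9, DRM2 and SPT5L were named after their values were seen. The count of 7 became 3 without atino80-6 1 or wild type 2 and 4 without atino80-6 2 or wild type 3, and SUVH2, SUVH9 and IDN2 passed in every fit with a library left out.

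**Figure D5:**
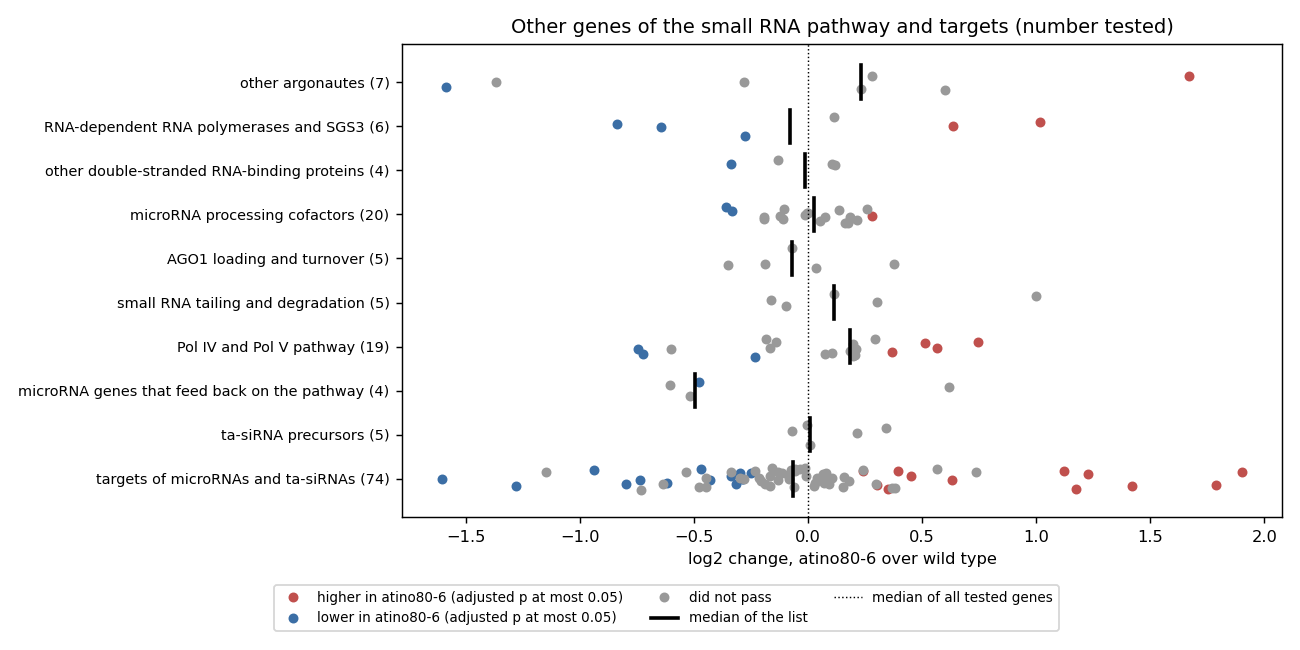
Log2 difference (horizontal axis, libraries labelled atino80-6 over wild type) of each tested gene in 10 lists of the small RNA pathway and its targets, with the number tested in brackets. Red and blue points are genes that passed the test higher or lower, and grey points did not pass. Short black lines are list medians, which run from -0.50 for the microRNA genes (MIR838 included) to 0.23 for the other argonautes.

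Known targets of microRNAs and ta-siRNAs made up the largest list, with 81 of 82 genes in the table and 74 tested. Of these 12 rose and 14 fell (35.1% in all, beside 34.2% of all tested genes), with a median log2 difference of -0.07. SULTR2;1, a sulfate transporter targeted by miR395, had 3149, 3126 and 3592 normalized counts in libraries labelled atino80-6, against 836, 905 and 889 in wild type. It rose by 1.90 ± 0.08 on the log2 scale (adjusted p = 2.9e-06), while APS4 and APS1, ATP sulfurylases listed with the same microRNA, had log2 differences of -0.09 and 0.15 and did not pass. ARPN, a plantacyanin targeted by miR408, averaged 207 ± 16.2 normalized counts in libraries labelled atino80-6, against 62.3 ± 24.9 in wild type, and rose by 1.79 ± 0.27 (adjusted p = 0.0011). LAC2, a laccase targeted by miR397, fell by 1.61 ± 0.45 (adjusted p = 0.023), although atino80-6 2 at 42.8 normalized counts lay above wild type 1 at 42.0. The LAC2 call was lost without atino80-6 1, atino80-6 3, wild type 2 or wild type 3. With FPKM plus 1, which shrinks the difference of a scarce transcript, LAC2 was at -0.68. The count of 26 targets called became 17 without atino80-6 1, 14 without atino80-6 2, 12 without wild type 2 and 11 without wild type 3.

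The genes whose pattern over the 6 libraries was closest to that of DCL1 were sought among 17186 genes that averaged 50 or more normalized counts, by Euclidean distance between centred log2 values. They were AT1G66190 at a distance of 0.070, AT1G80020 at 0.091, HHP2 at 0.094, sks17 at 0.10 and AT1G14170 at 0.11. Their log2 differences ran from -0.95 for AT1G66190 to -0.87 for sks17, beside -0.92 for DCL1. The choice by distance over the same libraries itself makes these values close. For AGO1 the closest genes were RL2 at 0.057, AT5G13030 at 0.058, GB2 at 0.066, AT4G01810 at 0.069 and RPA70C at 0.075, with log2 differences between 0.02 for GB2 and 0.06 for RPA70C. None of the other 9 members was among the 5 genes closest to DCL1, nor was DCL1 or another member among those closest to AGO1.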

How the data were processed

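Expression was measured by RNA sequencing of 6 libraries, 3 labelled atino80-6 and 3 labelled wild type, made with TRIzol, DNase and a TruSeq RNA kit, per the labels' protocols. Per the submitters' processing notes, the build was TAIR10 and the tools included HISAT2, featureCounts and DESeq2, besides cutadapt, FastQC, SAMtools and deepTools; the annotation is not given in the sources used here. The authors deposited FPKM values, to which DESeq2 size factors had been applied. Per the file headers, the authors' comparison table gives a mean signal, log2 fold changes, a score (each change over its standard error) and p-values.

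Dividing each gene's FPKM values by their mean and multiplying by the deposited mean signal gave the authors' normalized counts. Undoing the size factors gave whole reads, within 0.01 reads, for 146922 of 146922 values, from 18446028 to 24156610 reads in a library. Genes that averaged 10 or more normalized counts (20222) were fitted by limma 3.58.1 in R 4.3.3 on log2(normalized count + 1), a linear model on genotype with a trend, two-sided, with p-values adjusted by Benjamini-Hochberg across these genes and called at 0.05. A gene rose or fell where it passed. The design had assumed normalized expression values and the unit is FPKM, so count models were not run; limma voom on the recovered reads was an alternative. The script was checked on simulated data whose set changes were larger than many named here, so the recovery of smaller changes was not checked. The sources do not say whether replicates were separate cultures, so p-values measure only the spread between these samples.

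The 10 members and all gene lists were chosen with earlier results of these data known. From each list, genes were named by rule: up to 4 that passed, by size of change, and up to 2 that did not, by level; all microRNA and TAS genes in the table were also named. Alternatives were pseudocounts of 0.5 and 5, no filter, a mean of at least 50, equal totals, quantile normalization, voom, robust empirical Bayes, a block for the repeat number, each library left out, atino80-6 3 and wild type 1 left out together, and FPKM plus 1. Sequences were read from RefSeq TAIR10.1, whose coordinates are not used here. Python 3.11.15 with pandas 2.3.3, numpy 2.4.6 and matplotlib 3.10.9 made the tables and plots.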

Additional observations from a re-analysis of the deposited data

How the results depend on the processing

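Of the 17 alternatives, none reversed a named gene that was called. DCL1 was at -0.84 and AGO4 at 0.49 with FPKM plus 1, and SE was at 0.16 without atino80-6 3 and wild type 1. Members called numbered 2 or 3, which is a description, since they were chosen with this comparison known. Over all genes the number called ran from 4865 to 7412 with a library left out and was 8819 without those 2 libraries. Counts of list genes called moved by over 1.5 times as follows, and the cause was not tested. With a library left out, the counts ran from 1 to 3 for the other argonautes (2 with all libraries), 3 to 5 for RNA-dependent RNA polymerases (5), 0 to 1 for double-stranded RNA-binding proteins (1), 2 to 5 for processing cofactors (3), 0 to 1 for AGO1 loading (0), 0 to 2 for tailing (0), 3 to 6 for Pol IV and Pol V (7), 0 to 1 for TAS genes (0) and 11 to 25 for targets (26). Without atino80-6 3 and wild type 1 they were 3 for RNA-dependent RNA polymerases, 2 for double-stranded RNA-binding proteins, 5 for cofactors, 2 for AGO1 loading and 3 for tailing. AGO1 loading had 1 with equal library totals and 1 with quantile normalization. With FPKM plus 1 there were 1 for argonautes and 3 for microRNA genes. Of 813 pairs of a named gene and an alternative, 746 kept call and direction, 40 lost the call and 27 gained it.

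The deviations of same-numbered libraries had correlations of 0.027, -0.186 and -0.097 for numbers 1, 2 and 3. Between libraries of unlike number the correlations ran from -0.148 to 0.248. With 3 libraries in each group, these values cannot decide whether the numbers pair the samples. With the repeat number as a replicate block, 3158 genes rose and 2919 fell, against 3572 and 3351 without it, and 2 members were called.

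Genes near the floor of 2.62 to 3.50 normalized counts, such as MIR162B and TAS3C, give no comparison at this depth.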

Other observations

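Other families of microRNA targets, all named after their values were seen, did not share a direction. Of all tested genes, 17.7% rose and 16.6% fell. Among the 5 HD-ZIP III genes, leaf-polarity and vascular regulators targeted by miR165 and miR166, PHB averaged 1453 ± 46.4 normalized counts in libraries labelled atino80-6, against 1180 ± 79.7 in wild type (SD, n = 3 each), and rose by 0.30 on the log2 scale. REV, ATHB8 and ATHB15 of the same family fell by 0.25, 0.32 and 0.29. These 4 changes were small, and each lost its call in 3 or more of the 6 fits with a library left out. Among the NAC genes targeted by miR164, NAC1 had 1486, 1424 and 1832 normalized counts in libraries labelled atino80-6, against 2068, 2675 and 2550 in wild type, and fell by 0.62. NAC092 of the same family fell by 0.74, and 0 of the 5 tested genes of this family rose.

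Of the miR398 targets, CSD2, the plastid copper/zinc superoxide dismutase, averaged 2792 ± 200 normalized counts in libraries labelled atino80-6, against 1192 ± 98.7 in wild type (SD, n = 3 each), and rose by 1.23 on the log2 scale, and CCS, the copper chaperone, rose by 0.40. CSD1, the cytosolic enzyme, fell by 0.34, a call lost in 4 of the 6 fits with a library left out. PHO2, a ubiquitin-conjugating enzyme of phosphate balance targeted by miR399, fell by 0.80, and AGL16, a MADS-box gene targeted by miR824, fell by 0.94. The lists of the SPL genes (miR156) and of the growth-regulating factors (miR396) each held 7 tested genes, of which 1 rose (SPL11 and GRF8) and 0 fell. Each of these calls was lost in 5 of the 6 fits with a library left out: only the fit without atino80-6 1 kept SPL11 and only the fit without atino80-6 3 kept GRF8.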
